A study of Mus musculus with 10 samples.

Results

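The 10 genes described here govern the passage of a cell from G1 into S phase: the CDK inhibitors Cdkn1a and Cdkn1b, the pocket proteins Rbl1 and Rbl2, the kinase Lats2, the D-type cyclins Ccnd1, Ccnd2 and Ccnd3, and the E-type cyclins Ccne1 and Ccne2. They were chosen by name, with earlier results of these data known. The rows of the count table that pair with these symbols were taken, and all 10 were found among its 51467 genes. All 10 were also among the 11683 genes that passed the filter on low counts. Their mRNA levels were followed in mouse embryonic stem cells (ESCs) of 3 genotypes.

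Wild-type (WT) cells were of the V6.5 line and gave 3 libraries. DGCR8 KO cells, a single line made earlier, lack the protein that works with Drosha to release miRNA precursors from primary transcripts, and gave 3 libraries. DDX6 KO cells were made from V6.5 cells with CRISPR-Cas9 and lack an RNA helicase that the miRNA effector complex recruits. They gave 4 libraries, 2 from each of 2 clones. One clone carries a single-base insertion and the other a large deletion, and both edits create a premature stop, but the labels do not tie an edit to a clone number. All cells were grown with serum, LIF and both inhibitors of 2i (PD0325901 and CHIR99021). Cells for polysome profiling also received cycloheximide, and the methods do not say whether the matched mRNA libraries came from such cells. Neither the labels nor the methods say that libraries of a genotype came from separate cultures, so the p-values below measure only the spread between these libraries. With 1 DGCR8 KO line, loss of DGCR8 cannot be told apart from other features of that line. Both DDX6 KO clones stood above WT over chromosome 6, by median log2 differences of 0.64 in clone 1 and 0.56 in clone 2. Loss of DDX6 cannot be told apart from features that both clones share.

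In early G1, D-type cyclins pair with CDK4 or CDK6 and begin to phosphorylate the retinoblastoma family of pocket proteins. Cyclin E with CDK2 completes that step, E2F factors are released and S phase genes are transcribed, while p21 and p27, the products of Cdkn1a and Cdkn1b, hold the kinases back. ESCs pass through G1 quickly and express large amounts of ESCC miRNAs (embryonic stem cell-specific cell cycle-regulating miRNAs). Members of this family lie in the miR-290 and miR-302 clusters. In the authors' reporter line, naive ESCs were positive for miR-290 and negative for miR-302, and epiblast-like cells were positive for both. The ESCC miRNAs are known to repress several inhibitors of the entry into S phase, Cdkn1a, Rbl2 and Lats2 among them.

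Gene levels are given as counts per 1000000 (CPM), with library sizes adjusted by trimmed means of M-values. Since QuantSeq reads only the 3′ end of each transcript, its counts do not grow with transcript length. Totals over genes ran from 2131156 to 4745083 counts per library, where the floor of 3 counts stood at 0.632 to 1.41 CPM before that adjustment. Dgcr8 stood at 50.4 to 65.8 CPM in WT and 9.16 to 15.5 CPM in DGCR8 KO libraries, 20.6% of the WT mean. Ddx6 stood at 505 to 586 CPM in WT libraries, at 149 and 135 CPM in clone 1 (26.4% of the WT mean) and at 39.0 and 25.7 CPM in clone 2 (6.02%). Naive ESC markers were abundant in every library, with 8 markers summing to 4018 to 4476 CPM in WT, 3468 to 3936 in DGCR8 KO and 4339 to 4685 in DDX6 KO libraries, so that the DGCR8 KO libraries lay below the rest. The 6 primitive endoderm markers summed to at most 6.11 CPM and the 6 fibroblast markers to 3.41 to 4.32 CPM in WT, 2.44 to 3.39 in DGCR8 KO and 5.28 to 9.52 in DDX6 KO libraries, with Sox7, Postn and Lum at 3 counts or fewer in every library. Sums also stood apart between genotypes for markers of primed epiblast (194 to 287 CPM in WT, 148 to 178 in DGCR8 KO and 81.4 to 107 in DDX6 KO libraries, with Fgf5 at 3 counts or fewer), and those of neural genes were lowest in DGCR8 KO libraries (109 to 136, 48.2 to 72.9 and 127 to 183 CPM). The part of these markers in the results below was not tested. The 6 trophoblast markers summed to 32.9 to 61.6 CPM over all libraries, with Elf5 at 3 counts or fewer. In bulk RNA, a smaller share of cells with a transcript and less of it per cell cannot be told apart.

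The miRNAs shown next are those whose seed defines the ESCC family, with 1 member of the miR-17 family for comparison. They were taken from RefSeq (GRCm38.p6) and are written 5′ to 3′ with the seed, bases 2 to 8, in capitals.
miR-291a-3p: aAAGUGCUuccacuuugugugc
miR-294-3p: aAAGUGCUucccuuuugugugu
miR-295-3p: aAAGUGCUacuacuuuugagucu
miR-302b-3p: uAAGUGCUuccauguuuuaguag
miR-302d-3p: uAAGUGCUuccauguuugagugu
miR-17-5p: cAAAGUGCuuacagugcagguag
The first 3 lie in the miR-290 cluster on chromosome 7 and the next 2 in the miR-302 cluster on chromosome 3. All 5 share 1 seed. The seed of miR-17-5p holds most of the same bases set 1 position later, so a 7-base ESCC match that is followed by T is also a miR-17 match.

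Matches to the ESCC seed stood in the annotated 3′ UTRs of 6 of the 10 regulators: Cdkn1a and Lats2 held 2 each, and Rbl1, Rbl2, Ccnd1 and Ccnd2 held 1 each. A match was AGCACTT, the complement of bases 2 to 8 of the miRNA, or GCACTTA, which pairs with bases 2 to 7 and has an A opposite the first base, and the 8-base form joins both. It was searched on the transcribed strand of the principal coding transcript in GENCODE M21. The sites are shown because they separate the 6 regulators from the 4 without one, each with its neighbouring bases from that annotation (GRCm38, the build of the counts), 5′ to 3′ along the transcript and with the match in capitals.
Cdkn1a, first site, chr17:29099817-29099846, plus strand: cagacctgaatAGCACTTtggaaaaatgag
Cdkn1a, second site, chr17:29100489-29100518, plus strand: gtgggtgtcaaAGCACTTAgtgggtctgac
Rbl1, chr2:157147466-157147495, minus strand: tgcctgatcaaAGCACTTttggattgttct
Rbl2, chr8:91123815-91123844, plus strand: tgtatttttcaataaAGCACTTAtaaatta
Lats2, first site, chr14:57691075-57691104, minus strand: agtatggaaagAGCACTTAttttgtggata
Lats2, second site, chr14:57690976-57691005, minus strand: ttgtatctgatAGCACTTgtccacagctag
Ccnd1, chr7:144931665-144931694, minus strand: ttccatttcaaAGCACTTttggtcagctag
Ccnd2, chr6:127129329-127129358, minus strand: tccattagaaaAGCACTTtgaaaattttgg
The match of Rbl2 ends 7 bases before the annotated end of its 3′ UTR, and that of Rbl1 begins 22 bases after the stop codon. In Cdkn1a, Rbl1, Ccnd1 and Ccnd2, 1 ESCC match is followed by T and overlaps a miR-17 match. Rbl2 held 2 miR-17 matches apart from its ESCC match, and Ccne2 held 1 miR-17 match. Cdkn1b, Ccnd3, Ccne1 and Ccne2 held no 7- or 8-base ESCC match, which says only that these letters are not in the annotated 3′ UTR. A match is a description of the sequence, not a tested site.

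Long 3′ UTRs hold more matches by length alone, so each was read against tested genes whose 3′ UTR is within 20% of the same length. Among all 10959 tested genes with an annotated 3′ UTR, 20.02% held a match. The share with a match was 19.1% for genes with 3′ UTRs about as long as that of Cdkn1a (1334 bases), 22.4% for Lats2 (1626 bases) and 20.9% for Rbl2 (1398 bases). It was 57.2% at the length of Ccnd2 (5173 bases), 36.2% at that of Ccnd1 (2676 bases) and 22.4% at that of Rbl1 (1613 bases). For the regulators with no match, the shares were 41.4% at the length of Cdkn1b (3439 bases), 14.1% at that of Ccnd3 (915 bases), 6.42% at that of Ccne1 (531 bases) and 22.2% at that of Ccne2 (1584 bases). Seeds of other families were also present. The let-7 seed had 3 matches in Ccnd2 and 1 in Ccnd1, where 45.0% and 27.8% of genes of like length held a match. The miR-15/16 seed matched 7 of the 10 regulators, with 3 matches each in Ccnd1 and Ccnd2 and 2 each in Ccnd3 and Ccne1. Of all tested genes with an annotated 3′ UTR, 27.2% held a miR-15/16 match. At the lengths of Ccnd1, Ccnd2, Ccnd3 and Ccne1 the shares were 45.9%, 66.5%, 19.7% and 12.9%.

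**Figure D1:**
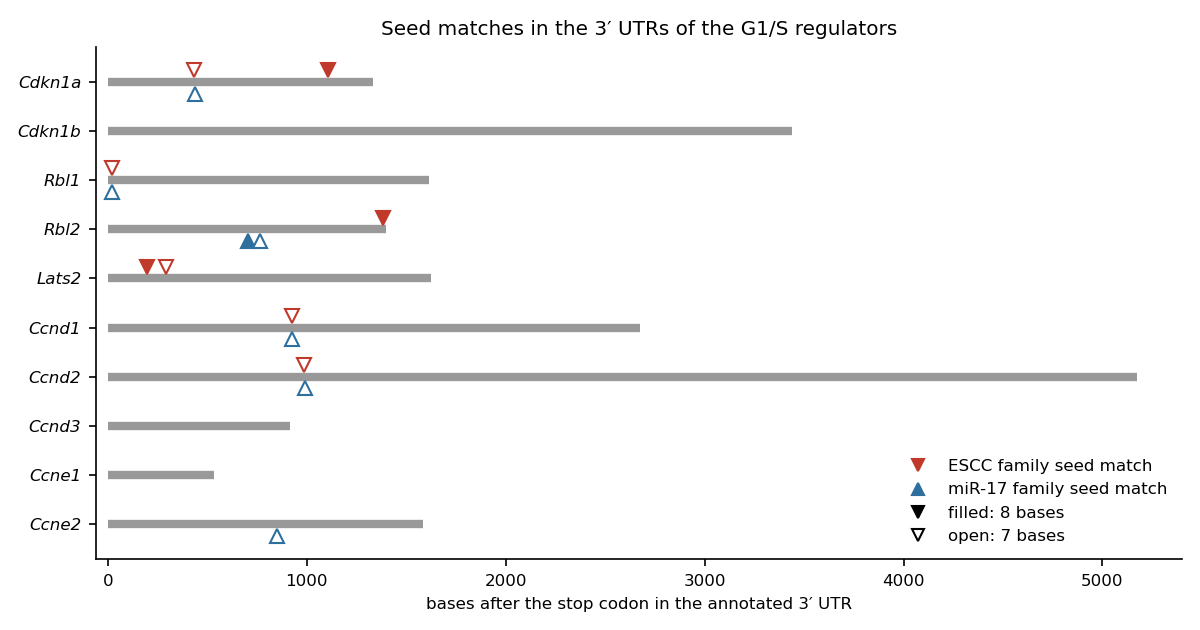
Grey bars show the annotated 3′ UTR of each regulator, in bases after the stop codon; red triangles mark ESCC seed matches and blue triangles miR-17 seed matches, filled for 8 bases and open for 7. ESCC matches stand in 6 of the 10 bars and none in those of Cdkn1b, Ccnd3, Ccne1 and Ccne2.

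Loss of DGCR8 changed 8 of the 10 regulators against WT at an adjusted p-value under 0.05 (limma with voom weights, Benjamini-Hochberg over all genes tested), against 36.3% of all genes tested. Ccnd2, Lats2, Rbl2, Ccnd1, Cdkn1a and Ccne2 rose, and Ccne1 and Ccnd3 fell. That made 6 of 10 higher, where 19.9% of all genes were higher, and 2 of 10 lower, where 16.5% were lower. Beyond a log2 difference of 1 there were 4 (Ccnd2, Lats2, Rbl2 and Ccnd1), all higher, against 8.93% of all genes. Libraries of DGCR8 KO and WT cells did not overlap for 9 of the 10, as for 44.8% of all genes. The median log2 difference over the 10 regulators was 0.88, and over all genes 0.0043. With libraries scaled to the ERCC spike-ins, whose recovery varied between libraries (1.11 to 2.42% of gene counts), 4 of the 10 passed (Ccnd2, Lats2, Rbl2 and Ccnd1) and 1015 genes in all. The 4 that then missed the threshold had log2 differences of 0.77 (Cdkn1a), 0.66 (Ccne2), -1.01 (Ccnd3) and -1.08 (Ccne1).

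Loss of DDX6 changed 5 of the 10, against 34.5% of all genes: Rbl2, Cdkn1b and Ccne2 rose and Ccnd3 and Ccnd1 fell. Higher calls were 3 of 10, where 17.9% of all genes were higher, and lower calls 2 of 10, where 16.6% were lower. Rbl2 and Cdkn1b were higher beyond a log2 difference of 1, against 7.55% of all genes. Cdkn1b stood close to that limit, and 1 regulator was left beyond it without WT replicate 3 or without replicate 2 of clone 1. The libraries did not overlap for 6 of the 10, as for 39.9% of all genes, and the median log2 difference was 0.22 against 0.024 over all genes. Both comparisons use the same 3 WT libraries, so their values are given side by side for each gene and the knockouts are compared in a contrast of their own. Scaled to the spike-ins, limma called 0 of the 10 in DDX6 KO cells, with 4 at an unadjusted p-value under 0.05, and 724 genes in all. The log2 differences there were 1.28 for Rbl2, 1.08 for Cdkn1b, 0.85 for Ccne2, -0.76 for Ccnd3 and -0.37 for Ccnd1.

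**Figure D2:**
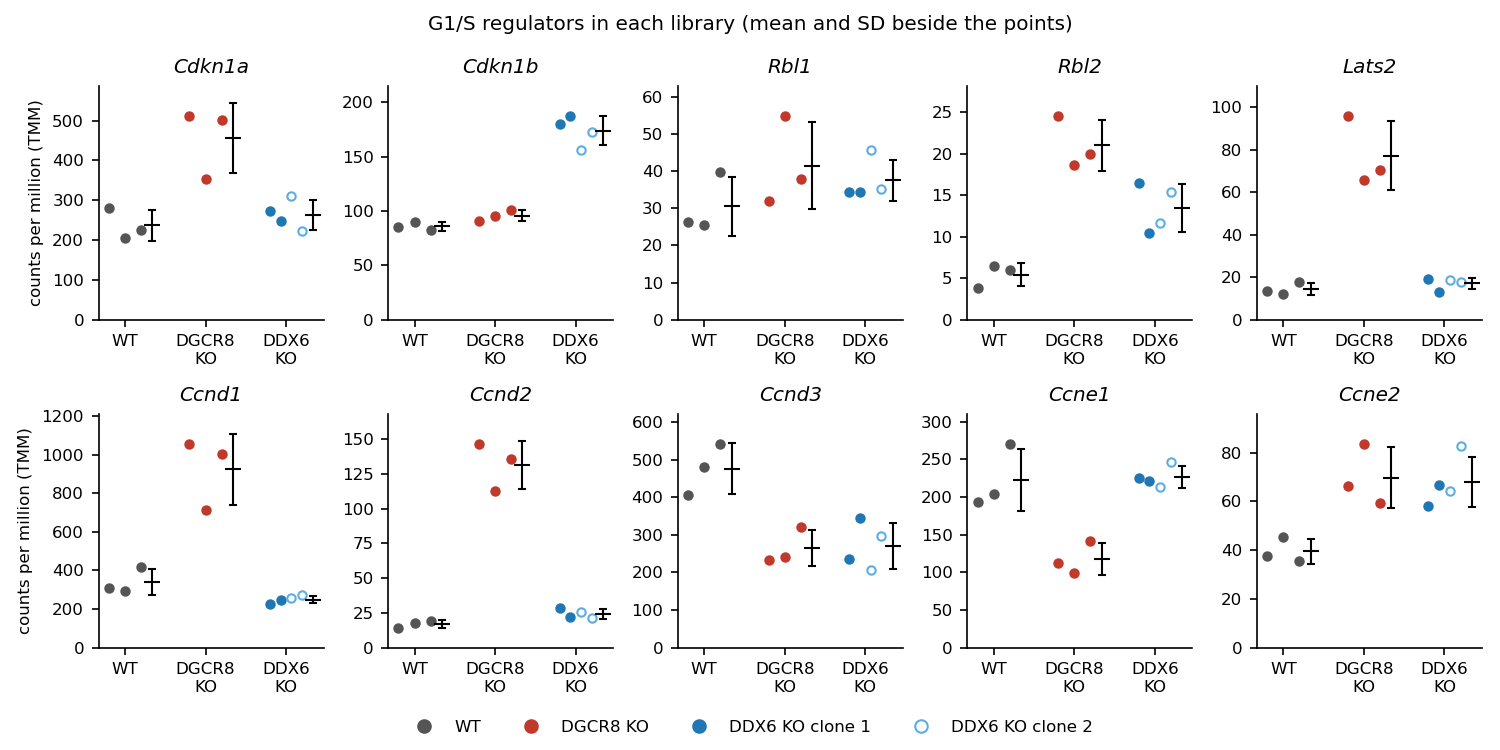
Each panel shows 1 regulator in CPM (linear axis from 0); points are libraries of WT, DGCR8 KO and DDX6 KO cells, open points clone 2 of the DDX6 KO, and the bars beside them the mean and SD of each genotype. The DGCR8 KO points of Lats2, Ccnd1 and Ccnd2 lie above all WT and DDX6 KO points, and the DDX6 KO points of Cdkn1b lie above all others.

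The CDK inhibitors parted between the knockouts, Cdkn1a rising in DGCR8 KO cells and Cdkn1b in DDX6 KO cells. Cdkn1a (ENSMUSG00000023067, GRCm38 chromosome 17 from 29090979 to 29100722, the build of all gene positions given here) encodes p21, which binds and inhibits cyclin-CDK complexes and is a classic target gene of p53. It stood at 280.4, 206 and 225 CPM in the WT libraries and at 510.4, 354 and 502 CPM in the DGCR8 KO libraries. It stood at 273 and 247 CPM in clone 1 and 309.6 and 222 CPM in clone 2 of the DDX6 KO. All 3 DGCR8 KO libraries lay above every other library, while the DDX6 KO and WT libraries overlapped. Its level in DGCR8 KO cells was 1.92 times that in WT cells, a log2 difference of 0.94 (SE 0.15, limma adjusted p = 8.25e-05). The log2 difference in DDX6 KO cells was 0.15, with a 95% confidence interval from -0.15 to 0.46.

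Cdkn1b (ENSMUSG00000003031, chromosome 6 from 134920401 to 134925513) encodes p27, the inhibitor of cyclin E-CDK2 whose level in many cells is set by SCF ubiquitin ligases. Its WT libraries held 85.5, 90.3 and 82.5 CPM and its DGCR8 KO libraries 90.6, 95.7 and 101 CPM. Clone 1 held 179.8 and 187 CPM, and clone 2 held 156 and 173 CPM. The 4 DDX6 KO libraries lay above all the others, and those of DGCR8 KO lay above WT by a narrow margin. The log2 difference from WT was 1.02 in DDX6 KO (SE 0.11, limma adjusted p = 1.80e-06) and 0.15 in DGCR8 KO cells, which did not pass (limma adjusted p = 0.344). The 561 tested genes of chromosome 6 had a median log2 difference of 0.59 from WT in DDX6 KO cells. Against that median Cdkn1b was higher by 0.42, and with values centred on each chromosome its log2 difference was 0.41 (limma adjusted p = 0.00619).

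Among the pocket proteins, which bind E2F factors and repress their targets, Rbl2 rose in both knockouts and Rbl1 passed in neither. Rbl2 (ENSMUSG00000031666, chromosome 8 from 91070057 to 91123844) encodes p130, the pocket protein typical of resting cells. It was the least abundant of the regulators, with 8, 19 and 27 counts in the WT libraries, or 3.84, 6.47 and 6.02 CPM. It reached 24.5, 18.7 and 19.96 CPM in DGCR8 KO cells, 16.5 and 10.4 CPM in clone 1 and 11.6 and 15.4 CPM in clone 2. The genotypes did not overlap, and the order of levels was DGCR8 KO, DDX6 KO, WT. The log2 difference from WT was 1.89 (SE 0.29, limma adjusted p = 6.76e-05) in DGCR8 KO cells and 1.23 (SE 0.30, limma adjusted p = 0.00359) in DDX6 KO cells. Chromosome 8 was lower as a whole in DGCR8 KO cells, its 644 tested genes having a median log2 difference of -0.45, and relative to it Rbl2 was higher by 2.34. The level in DGCR8 KO exceeded that in DDX6 KO cells by 0.65 on the log2 scale (limma adjusted p = 0.0177). That call was lost without DGCR8 KO replicate 1 (limma adjusted p = 0.105), without replicate 2 of clone 1 (0.0610) and without replicate 1 of clone 2 (0.0548), and when the fit held only 1 clone. Centred on each chromosome, where chromosome 8 had a median of -0.43 between the knockouts, the difference was 1.09 (limma adjusted p = 4.09e-04).

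Rbl1 (ENSMUSG00000027641, chromosome 2 from 157145893 to 157204512) encodes p107, the pocket protein of proliferating cells. Its libraries overlapped between all genotypes, at 26.4, 25.6 and 39.7 CPM in WT, 31.8, 54.6 and 37.9 CPM in DGCR8 KO, 34.4 in both libraries of clone 1 and 45.7 and 35.3 CPM in clone 2. The log2 difference from WT was 0.37 in DGCR8 KO cells, with a 95% confidence interval from -0.08 to 0.82, and 0.25 in DDX6 KO cells, from -0.18 to 0.68. Changes of the size seen for Rbl2 lie outside both intervals.

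Lats2 rose in DGCR8 KO cells and did not pass in DDX6 KO cells. Lats2 (ENSMUSG00000021959, chromosome 14 from 57689662 to 57746123) encodes a kinase of the Hippo pathway that phosphorylates YAP and TAZ and can hold cells in G1. Its WT libraries held 13.4, 12.3 and 17.8 CPM against 95.5, 65.5 and 70.5 CPM in DGCR8 KO libraries. Clone 1 held 19.0 and 13.2 CPM and clone 2 held 18.6 and 17.6 CPM. Every DGCR8 KO library thus held more than 3 times the level of the highest library of the other genotypes. The log2 difference in DGCR8 KO cells was 2.36 (SE 0.22, limma adjusted p = 1.95e-07), or 5.12 times the WT level. It was 0.19 in DDX6 KO cells, with a 95% confidence interval from -0.31 to 0.70.

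The D-type cyclins, the partners of CDK4 and CDK6 that link growth signals to the cycle, each followed a pattern of their own. Ccnd1 (ENSMUSG00000070348, chromosome 7 from 144929931 to 144939869) stood at 311, 294 and 417 CPM in WT libraries and at 1054, 713 and 1005 CPM in DGCR8 KO libraries. It stood at 223 and 245 CPM in clone 1 and 255 and 271 CPM in clone 2, below every WT library. The log2 difference from WT was 1.42 (SE 0.14, limma adjusted p = 6.12e-07) in DGCR8 KO cells and -0.45 (SE 0.15, limma adjusted p = 0.0211) in DDX6 KO cells. The decrease in DDX6 KO cells depended on single libraries: it was -0.29 and did not pass without WT replicate 3 (limma adjusted p = 0.184), and -0.40 without replicate 1 of clone 1 (limma adjusted p = 0.0614). It did not pass when the fit held the libraries of only 1 clone (-0.53 and limma adjusted p = 0.0522 with clone 1), or with libraries scaled by total counts (-0.34, limma adjusted p = 0.0711).

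Ccnd2 (ENSMUSG00000000184, chromosome 6 from 127125162 to 127151060) had the largest log2 difference of the 10 regulators in DGCR8 KO cells. From 13.9, 17.4 and 19.2 CPM in WT libraries it went to 146, 113 and 136 CPM in DGCR8 KO libraries, 7.54 times the WT level, a log2 difference of 2.91 (SE 0.18, limma adjusted p = 1.85e-09). Clone 1 held 28.2 and 21.9 CPM and clone 2 held 25.3 and 20.99 CPM, all above the WT libraries. That difference, 0.46 on the log2 scale, was not past the threshold (limma adjusted p = 0.0858). It passed with the replicate block (0.51, limma adjusted p = 0.0384), with total counts (0.58, limma adjusted p = 0.0300), with edgeR and with limma-trend. Since chromosome 6 was higher by a median of 0.59 in DDX6 KO cells, Ccnd2 lay below its chromosome by 0.13, and centred on it the log2 difference turned to -0.14. The difference in DGCR8 KO cells lay 2.84 above the chromosome median.

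Ccnd3 (ENSMUSG00000034165, chromosome 17 from 47505051 to 47599691) was the most abundant D-type cyclin of WT cells and fell in both knockouts. It held 406, 481 and 541 CPM in WT libraries, 233, 242 and 320.1 CPM in DGCR8 KO libraries, 235 and 344 CPM in clone 1 and 207 and 296 CPM in clone 2. No knockout library reached the lowest WT library. The log2 differences were -0.87 (SE 0.16, limma adjusted p = 3.59e-04) in DGCR8 KO cells and -0.84 (SE 0.15, limma adjusted p = 3.20e-04) in DDX6 KO cells, and the knockouts differed by -0.02, with a 95% confidence interval from -0.35 to 0.30.

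Added up, the D-type cyclins made 834 ± 128 CPM (SD, n = 3) in WT, 1321 ± 219.8 CPM (SD, n = 3) in DGCR8 KO cells and 543 ± 65.7 CPM (SD, n = 4) in DDX6 KO cells, and no library of 1 genotype overlapped those of another. The make-up of that sum differed as well, and is described without a test because the genes were chosen with their values known. Ccnd3 made 57.2 ± 3.01% of it in WT cells but 20.3 ± 3.50% in DGCR8 KO cells, where Ccnd1 made 69.7 ± 3.47% against 40.8 ± 3.16% in WT (SD, n = 3 each). Ccnd2 made 2.02 ± 0.153% in WT, 10.02 ± 0.643% after loss of DGCR8 and 4.54 ± 1.13% after loss of DDX6 (SD, n = 3, 3 and 4). In DDX6 KO cells Ccnd3 made 49.3 ± 5.70% and Ccnd1 46.1 ± 4.98% (SD, n = 4). Replicate 2 of clone 1, with 56.3% Ccnd3 and 40.1% Ccnd1, lay within the WT ranges, and the other 3 DDX6 KO libraries lay below them for Ccnd3 and above them for Ccnd1.

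**Figure D3:**
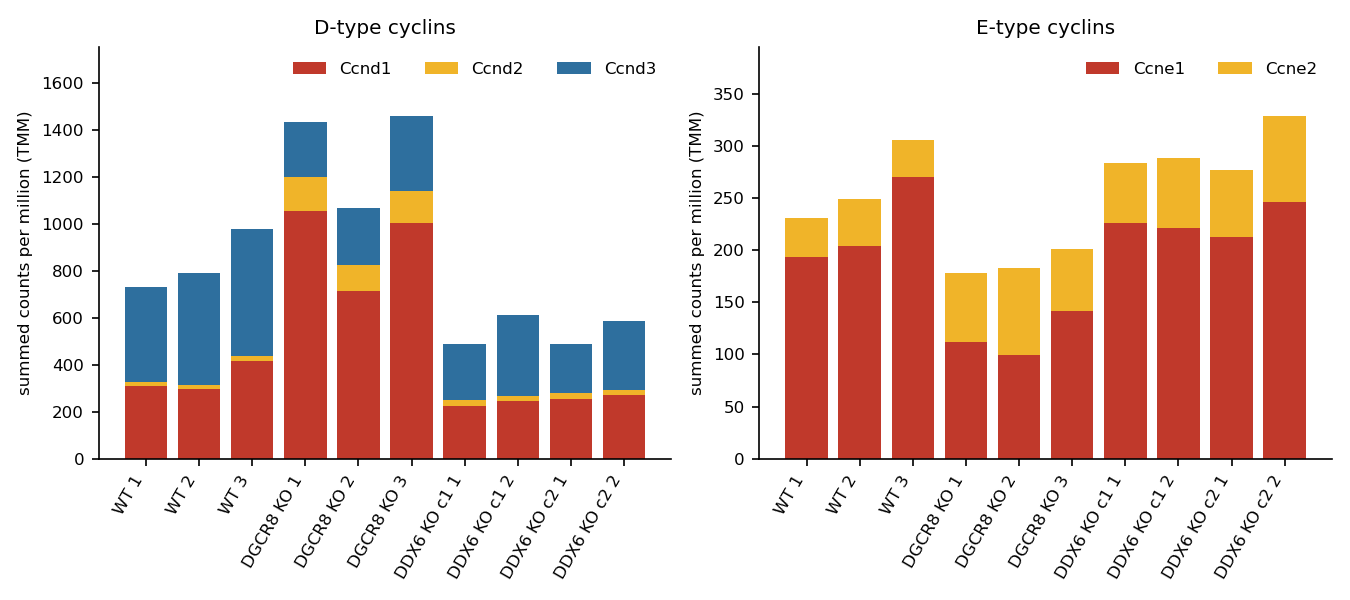
Stacked bars show the summed CPM of the D-type cyclins (left) and E-type cyclins (right) in each library, with clones 1 and 2 of the DDX6 KO written c1 and c2. Ccnd1 takes most of the D-type bar in the DGCR8 KO libraries, where Ccnd3 is at its smallest share, and the E-type bars are shortest in the same libraries.

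The E-type cyclins, which activate CDK2 at the entry into S phase, moved apart in DGCR8 KO cells. Ccne1 (ENSMUSG00000002068, chromosome 7 from 38097984 to 38107534) held 194, 204 and 270.2 CPM in WT libraries and 112, 99.1 and 142 CPM in DGCR8 KO libraries, a log2 difference of -0.95 (SE 0.14, limma adjusted p = 5.29e-05). It held 226 and 222 CPM in clone 1 and 213 and 247 CPM in clone 2 of the DDX6 KO, all inside the WT range. The log2 difference there was 0.02, with a 95% confidence interval from -0.24 to 0.29.

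Ccne2 (ENSMUSG00000028212, chromosome 4 from 11191354 to 11204779) rose in both knockouts. It held 37.4, 45.3 and 35.7 CPM in WT libraries, 66.4, 83.5 and 59.5 CPM in DGCR8 KO libraries, 58.2 and 66.8 CPM in clone 1 and 64.4 and 82.6 CPM in clone 2. Each knockout library lay above every WT library. The log2 differences were 0.83 (SE 0.17, limma adjusted p = 9.41e-04) in DGCR8 KO cells and 0.80 (SE 0.16, limma adjusted p = 9.89e-04) in DDX6 KO cells. The difference between the knockouts was 0.03, with a 95% confidence interval from -0.28 to 0.34. Ccne1 made 84.7 ± 3.34% of the summed E-type cyclin CPM in WT (SD, n = 3), 62.5 ± 8.09% in DGCR8 KO (SD, n = 3) and 77.02 ± 1.88% in DDX6 KO cells (SD, n = 4), and no WT library overlapped a knockout library.

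**Figure D4:**
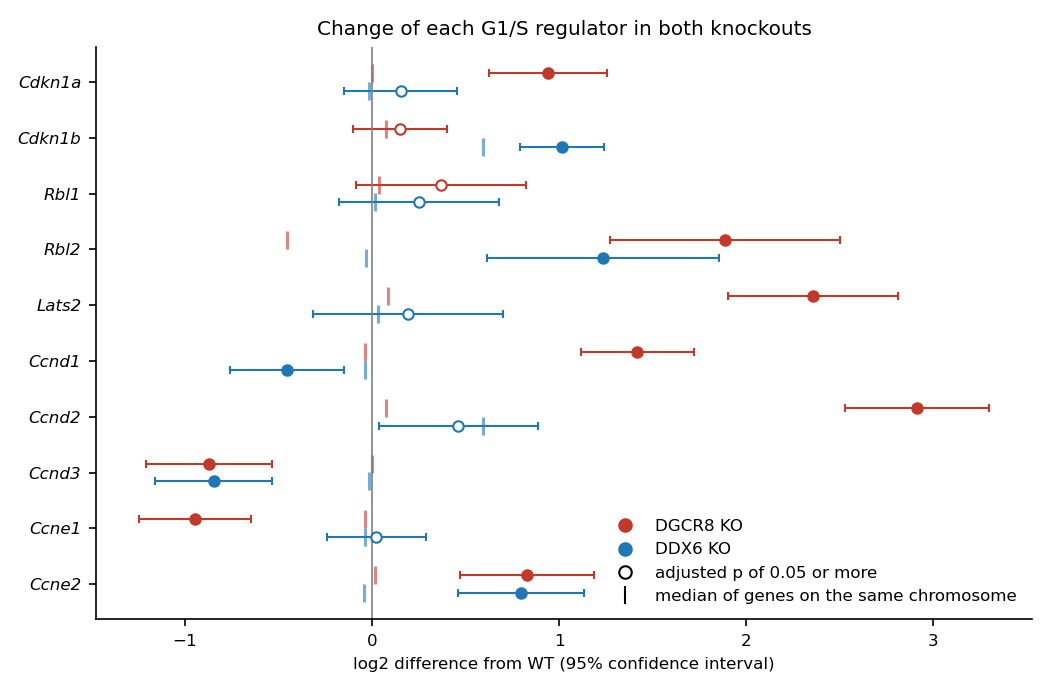
Points are log2 differences from WT with 95% confidence intervals, red for DGCR8 KO and blue for DDX6 KO cells, filled where the adjusted p-value was under 0.05; ticks mark the median log2 difference of the tested genes on the same chromosome. The red points of Ccnd2, Lats2, Rbl2 and Ccnd1 lie beyond 1, the blue tick of chromosome 6 stands at 0.59 beside Cdkn1b and Ccnd2, and the points of Ccnd3 and Ccne2 nearly coincide.

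Whether the knockouts differ was asked directly, DGCR8 KO against DDX6 KO, where the WT libraries enter only through the shared spread. The contrast called 7 of the 10 regulators, against 44.0% of all genes. Ccnd2 (log2 difference 2.45), Lats2 (2.16), Ccnd1 (1.87), Cdkn1a (0.79) and Rbl2 (0.65) were higher in DGCR8 KO cells, making 5 of 10 where 23.0% of all genes were higher. Ccne1 (-0.97) and Cdkn1b (-0.86) were lower in DGCR8 KO cells, making 2 of 10 where 21.0% of all genes were lower. Chromosome 6 had a median log2 difference of -0.52 in this contrast, and centred on it that of Cdkn1b was -0.34 (limma adjusted p = 0.0145). The first 3 were higher beyond 1, against 7.77% of all genes. With the limma adjusted p-values ranging from 1.02e-09 for Ccnd2 to 0.0177 for Rbl2, the weakest of the 7 was Rbl2. Rbl1, Ccnd3 and Ccne2 did not pass. The 5 regulators that were higher in DGCR8 KO cells all carry an ESCC match, and so does Rbl1, which did not pass. Over all tested genes with an annotated 3′ UTR, 33.2% of those with a match and 21.0% of those without were higher in this contrast. The part of the matches was not tested.

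The clones of the DDX6 KO, whose remaining Ddx6 mRNA differed (log2 difference -2.18 for clone 2 against clone 1, limma adjusted p = 3.10e-05), gave no call among the regulators. Limma called 0 of the 10 between the clones, as did edgeR and DESeq2, with 0 at an unadjusted p-value under 0.05, against 0.0428% of all genes called. Their log2 differences ran from -0.19 for Ccnd3 to 0.23 for Ccne2. With 2 libraries a clone the intervals were wide, that of Lats2 reaching from -0.47 to 0.85. In the model with each clone as a group of its own, fitted on all 10 libraries, clone 1 differed from WT in 5 of 10 regulators (23.8% of all genes) and clone 2 in 4 of 10 (24.6% of all genes). Rbl2, Cdkn1b, Ccne2 and Ccnd3 were called in each clone, with log2 differences of 1.21 and 1.26, 1.09 and 0.94, 0.68 and 0.91, and -0.75 and -0.94 in clone 1 and clone 2. Chromosome 6, which holds Cdkn1b, had median log2 differences of 0.64 in clone 1 and 0.56 in clone 2. Cdkn1b lay above these medians by 0.45 and 0.38. Ccnd1 was called in clone 1 (-0.54, limma adjusted p = 0.0375) and not in clone 2 (-0.37, limma adjusted p = 0.135), and the difference between the clones did not pass (0.17, with a 95% confidence interval from -0.25 to 0.59).

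Set side by side with the sequences printed above, 5 of the 6 regulators with an ESCC match rose in DGCR8 KO cells, by 0.94 to 2.91 on the log2 scale, Rbl1 being the exception. In DDX6 KO cells 1 of the same 6 rose (Rbl2), Ccnd1 fell and 4 did not pass. Of the 4 without a match, Ccnd3 and Ccne1 fell, Ccne2 rose and Cdkn1b did not pass in DGCR8 KO cells. The miR-15/16 seed matched the 5 ESCC-matched regulators that rose, and Ccnd3 and Ccne1, which fell, but not Rbl1, Cdkn1b or Ccne2. The part of either family in these changes was not tested. Over all tested genes with an annotated 3′ UTR, 34.05% of the 2194 with an ESCC match and 17.4% of the 8765 without one were higher in DGCR8 KO cells. Their median log2 differences were 0.24 and -0.03. The corresponding shares in DDX6 KO cells were 23.2% and 17.3%, with medians of 0.12 and 0.01. Genes with a match also have longer 3′ UTRs, with a median of 2376 bases against 849, and the part of that length in these shares was not tested.

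The wider pathway was followed through lists of its other genes, whose counts are read against the 19.9% of all genes that were higher and 16.5% lower in DGCR8 KO cells, and the 17.9% higher and 16.6% lower among DDX6 KO calls. Shares near these are no result about a list. Among 7 tested kinases and activators of the G1/S step, 1 was higher in DGCR8 KO cells, and 1 was higher and 4 lower in DDX6 KO cells, the single higher call in each being near the share over all genes. Cdk6, a partner of D-type cyclins, rose in both knockouts, with log2 differences of 1.75 (SE 0.14, limma adjusted p = 4.80e-08) and 1.19 (SE 0.14, limma adjusted p = 4.32e-06). Cdk4, the other partner, fell in DDX6 KO cells by 0.65 on the log2 scale, and Ccnh and Cdk7, subunits of the CDK-activating kinase, had differences of -0.36 and -0.30 there. Of 4 other CDK inhibitors tested, the single call in either knockout was Cdkn2d, which was lower in DGCR8 KO cells (-0.60, limma adjusted p = 0.0134).

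The 17 retinoblastoma, E2F and DREAM partners had 4 higher and 2 lower after loss of DGCR8 and 3 of each after loss of DDX6, all near the shares over all genes. Rb1, the founding pocket protein gene, rose by 0.97 on the log2 scale in DGCR8 KO cells (SE 0.26, limma adjusted p = 0.00634), as did Lin37, a DREAM subunit (1.21, SE 0.39, limma adjusted p = 0.0209). Mybl2, an activator of late cell cycle genes, had a log2 difference of -1.48 in DDX6 KO cells (SE 0.13, limma adjusted p = 2.32e-07) and E2f1 one of -0.81. Among 18 tested Hippo pathway genes, 5 were higher in each knockout, where 19.9% (DGCR8 KO) and 17.9% (DDX6 KO) of all genes were higher. Lower calls were 2 after loss of DGCR8 and 3 after loss of DDX6. None of these counts was far from the shares over all genes. Lats1, the paralogue of Lats2, rose in both, by 1.23 after loss of DGCR8 and 0.84 after loss of DDX6, and Nf2, an upstream activator of the LATS kinases, rose by 1.13 in DGCR8 KO cells. Ccn2, a target gene of YAP, had log2 differences of 0.84 after loss of DGCR8 and -1.39 after loss of DDX6. Mob1a, a cofactor of the LATS kinases on chromosome 6, had one of 0.99 in DDX6 KO cells. The median of that chromosome there was 0.59.

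Genes that act after the G1/S step are described next, where 16.5% of all genes were lower after loss of DGCR8 and 16.6% after loss of DDX6. Of 15 S phase target genes of E2F, 8 were lower and 2 higher in DGCR8 KO cells, with a median log2 difference of -0.33. In DDX6 KO cells 9 were lower and the rest did not pass, with a median of -0.37. Rrm2, a subunit of ribonucleotide reductase, had log2 differences of -1.27 after loss of DGCR8 and -0.67 after loss of DDX6. Mcm5, a subunit of the replicative helicase on chromosome 8, had -1.21 and -0.76, the median of that chromosome being -0.45 after loss of DGCR8. Mcm7 and Mcm3 had differences of -0.83 and -0.81 in DDX6 KO cells, where limma called both. Of 8 G2/M genes, 6 were lower in each knockout, with medians of -0.38 and -0.40. Foxm1, on chromosome 6 and named after its values were seen, was the 1 that was higher in DDX6 KO cells. The median of that chromosome there was 0.59. Ccnb1, which encodes cyclin B1, and Aurka, a mitotic kinase, differed by -0.77 and -0.67 in DGCR8 KO cells, and Cdc20 and Plk1, which drive mitosis, by -0.96 and -0.71 in DDX6 KO cells.

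Among 13 genes of p53 and its targets other than Cdkn1a, 2 were higher and 4 lower in DGCR8 KO cells. The shares over all genes there were 19.9% higher and 16.5% lower. Another 7 calls, all lower, came in DDX6 KO cells, where the rest did not pass and 16.6% of all genes were lower. Mdm2, the p53 ubiquitin ligase and itself a target, differed by -0.92 in DGCR8 KO cells, where Cdkn1a rose. In DDX6 KO cells Trp53 had a log2 difference of -0.95 (SE 0.12, limma adjusted p = 1.04e-05), and its targets Bbc3 and Bax had -1.01 and -0.93, while the interval of Cdkn1a held 0. Of 9 tested subunits of ubiquitin ligases for p27 and the cyclins, 2 were higher and 1 lower in DGCR8 KO cells and 1 higher and 2 lower in DDX6 KO cells, near the shares over all genes. Skp2, the receptor that marks p27 protein for degradation, rose by 0.55 in DGCR8 KO cells and differed by -0.45 in DDX6 KO cells (limma adjusted p = 0.00542). Its cofactor Cks1b differed by -0.55 and -0.48. Fbxw7, the receptor for cyclin E protein, rose by 0.59 in DGCR8 KO cells. Cul1, on chromosome 6, differed by 0.59 in DDX6 KO cells, where the median of that chromosome was also 0.59. All of these are mRNA levels, and the part of these genes in the levels of the regulators was not tested.

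**Figure D5:**
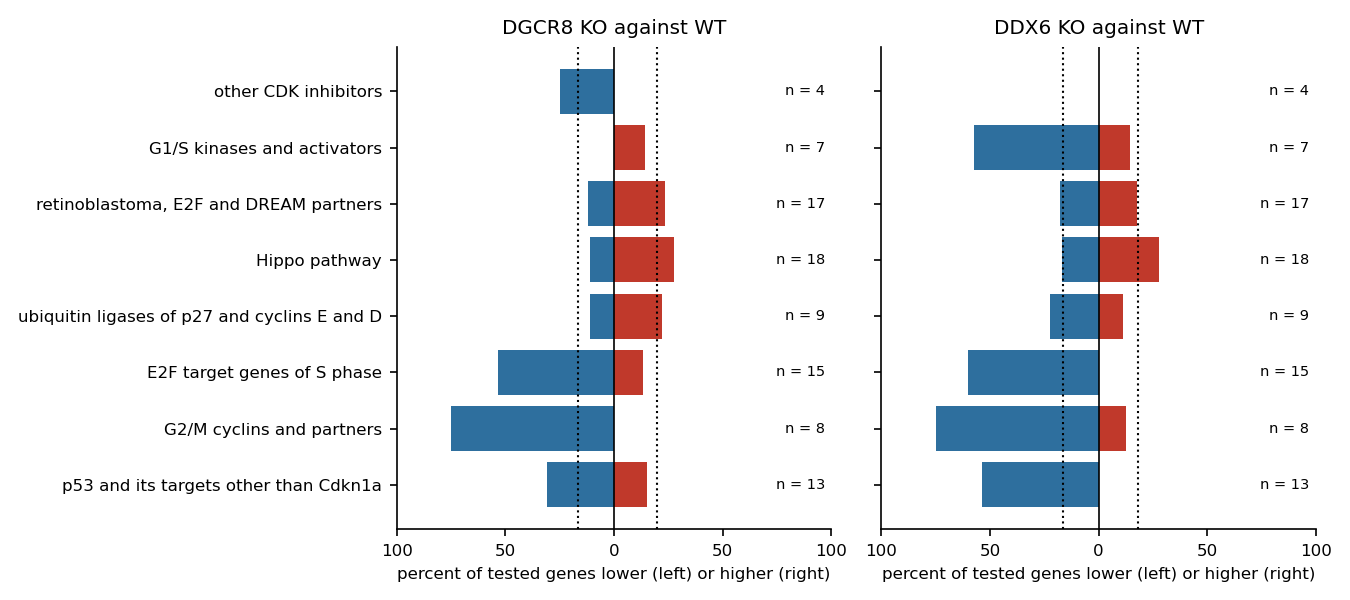
Bars give the percent of the tested genes of each list that were higher (red, right) or lower (blue, left) than WT at an adjusted p-value under 0.05, for DGCR8 KO and DDX6 KO cells; dotted lines mark the percent of all genes tested in each direction and n the genes tested. The longest bars to the left are those of the G2/M and E2F target lists in both panels, with p53 targets and G1/S kinases added in DDX6 KO cells.

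Genes whose pattern over the 7 knockout libraries came nearest to each regulator were named by the smallest root mean square difference of log2 CPM relative to the WT mean, among 8342 genes with at least 10 CPM on average. Nearest to Cdkn1a were Camsap1 (0.139) and Tmem181a (0.147), to Cdkn1b Hook1 (0.107) and Mkln1 (0.146), and to Rbl1 Ube2w (0.109) and Wee1 (0.146). Rbl2 came nearest to Jun (0.181) and Prx (0.238). Sh3pxd2a was the nearest gene of both Lats2 (0.245) and Ccnd2 (0.266), followed by Pmaip1 (0.318) for Lats2 and Cbr3 (0.278) for Ccnd2. Plekhm1 (0.123) and Polq (0.202) were nearest to Ccnd1, Pycr1 (0.196) and Sept11 (0.209) to Ccnd3, Cdc16 (0.101) and Shcbp1 (0.116) to Ccne1, and Ift74 (0.119) and Clip1 (0.176) to Ccne2. Mkln1 lies on chromosome 6, as Cdkn1b does, where the median log2 difference was 0.59 in DDX6 KO cells. Cdc16 and Shcbp1 lie on chromosome 8, where the median was -0.45 in DGCR8 KO cells. The likenesses are those of measured levels and carry no test.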

How the data were processed

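RNA of 10 libraries was measured with QuantSeq 3′ FWD, which reads the 3′ end of polyadenylated transcripts. Per the methods and the submitters' processing notes, the authors trimmed reads with cutadapt 1.14, aligned them to mm10 with STAR 2.5.3a keeping unique reads, and counted them on the sense strand over Gencode M14 genes without rRNA and with 92 ERCC spike-ins (featureCounts 1.5.3). The deposited values are raw counts per gene, 1 column per library. Symbols were paired by gene ID with GENCODE M21 for 51274 of 51467 genes; 193 stayed unpaired. Groups came from the sample labels. Replicate numbers recur across genotypes. Deviations of same-numbered WT and DGCR8 KO libraries from their group means correlated by 0.145 to 0.285 over 3 pairs. Over the 13 same-numbered pairs of all genotypes the range was -0.050 to 0.285. The numbers may therefore mark a pairing, by the data and not by the labels. The main fit did not include it, and a fit with a replicate block is given among the alternatives.

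The 11683 genes that reached 3 CPM in 3 or more libraries were scaled by TMM (edgeR 4.0.16) and fitted with limma 3.58.1 and voom (R 4.3.3) on all 10 libraries with genotype as the only term. The methods name limma but the sources used here do not give the transformation, so voom was chosen. Clones were separated in a second model with the same settings. P-values are two-sided and adjusted by Benjamini-Hochberg over all genes tested, and fitted folds are on the log2 CPM scale. CPM values with SD are arithmetic means over libraries. Alternatives were other scalings (total counts, DESeq2 1.42.0 size factors, spike-ins), no and stricter filters, edgeR, DESeq2 and limma-trend, a replicate block, each library left out, thinning to equal depth, each clone alone and centring by chromosome.

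Totals of 2131156 to 4745083 counts set the precision. Reads carry no molecular identifiers, so counting floors cover counting error only. Tests planned for cyclin shares are not given, since a share sums genes that were chosen with results known. The regulators and the gene lists were chosen with earlier results of these data known. Named pathway genes were at most 4 of each list, those with the largest called differences in either knockout.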

Additional observations from a re-analysis of the deposited data

Results flagged for a closer look

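Rbl1 in clone 2 replicate 1 of the DDX6 KO, at 45.7 CPM, stood apart from the other 3 DDX6 KO libraries, its gap to the nearest of them taking up 0.926 of the range of the 4. Chance sets apart a library in about 1 in 20 groups by this measure, and Rbl1 passed in no comparison.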

How the results depend on the processing

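Of 983 repeats of the results under other settings, 922 kept their direction and their side of the threshold or stayed near the same value. Spike-in scaling moved most: 4 regulators passed for DGCR8 KO cells and 0 for DDX6 KO cells (with 4 at an unadjusted p-value under 0.05), 0 passed beyond a log2 difference of 1 in DDX6 KO cells, where Rbl2 (1.28) and Cdkn1b (1.08) kept such differences without passing, and 5 passed beyond 1 between the knockouts. It also turned Cdkn1b in DGCR8 KO cells to -0.0067, and Rbl1 and Ccne2 between the knockouts to -0.090 and -0.19. The spike-in counts behind it varied from 29044 to 81718. Of all genes, 8.69% passed in DGCR8 KO cells, 6.20% in DDX6 KO cells and 13.4% between the knockouts under that scaling. All of these calls were beyond a log2 difference of 1. Regulators that passed beyond a log2 difference of 1 in DDX6 KO cells numbered 1 when centred by chromosome, thinned or with clone 2 alone, and 1 to 2 when each library was left out. Small differences that had not passed changed sign: between the knockouts, Ccne2 became -0.10 with total counts, -0.029 centred by chromosome, -0.025 thinned and -0.11 with clone 2 alone, Rbl1 became -0.011 with total counts and -0.0067 with clone 2 alone, and Ccnd3 became 0.054 thinned and 0.046 with clone 2 alone. Ccnd2 in DDX6 KO cells became -0.14 centred by chromosome. With each library left out, Ccne1 in DDX6 KO cells ran from -0.064 to 0.18, and between the knockouts Rbl1 ran from -0.10 to 0.30, Ccnd3 from -0.16 to 0.094 and Ccne2 from -0.10 to 0.13. Rbl2 between the knockouts lost its call with total counts (adjusted p = 0.0513) and without a filter (0.0523). Total counts moved the median of all genes in DDX6 KO cells to 0.15 and the split of all calls from 2088 higher and 1944 lower to 2822 and 1356. With it, 8, 5 and 6 regulators passed for DGCR8 KO, DDX6 KO and between the knockouts, Ccnd2 taking the place of Ccnd1 in DDX6 KO. The shares over all genes were 36.6%, 35.8% and 44.9%. Allowing 6-base matches gave 3 ESCC matches each in Cdkn1a and Rbl2. The causes of these changes were not tested.

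With a replicate block, 8, 6, 7 and 0 regulators passed in DGCR8 KO, DDX6 KO, between the knockouts and between the clones. The shares over all genes were 40.7%, 31.9%, 45.8% and 0.0685%. The block brought Ccnd2 past the threshold in DDX6 KO cells (0.51, adjusted p = 0.0384) and changed no other call. Over all genotypes 21 of 26 checks found a library's best partner under its own number. These checks are not independent, since the 2 libraries of a clone deviate from their mean by equal and opposite amounts. Rbl2 had 8 counts in the shallowest WT library and at most 27 in the others, so its fold changes are the least certain of the 10.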
